A study of Mus musculus with 24 samples.

Results

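The Hsp90 and Hsp70 chaperones that fold and hold steroid receptors were followed here as 9 genes, chosen by name, of 46983 in the deposited read count table. They are the cytosolic Hsp90s Hsp90aa1 and Hsp90ab1, their endoplasmic reticulum relative Hsp90b1, the Hsp90 partner proteins Stip1, Ptges3 and Cdc37, the Hsp70s Hspa8 and Hspa4, and the Hsp70 exchange factor Bag1. RNA was taken from hippocampal tissue punches of 24 adult female C57BL/6 mice, 6 in each of 4 groups. Fkbp5Nex mice carry the floxed Fkbp5 gene together with a Cre recombinase driven by the Nex promoter, which removes Fkbp5 from glutamatergic neurons of the forebrain, and the control genotype, Fkbp5lox/lox, carries the floxed gene without Cre. Mice of each genotype either grew up under standard conditions or went through early life stress (ELS), given as limited bedding and nesting from postnatal day 2 to 9. The mice came from a cohort that went through behavioural testing at 6 months and then brain scans before the tissue was taken. Whether each sequenced mouse was scanned is not stated. The punches hold every cell type of the tissue, so glia, interneurons and dentate granule cells, in which Nex-Cre leaves the gene in place, contribute to every value, and fewer cells of a type cannot be told apart from less RNA per cell.

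A steroid receptor such as the glucocorticoid receptor is first bound by Hsp70, is handed to Hsp90 by the adaptor Hop (the product of Stip1), and is held in a hormone-binding state by Hsp90 with p23 (the product of Ptges3). At that last stage Hsp90 also carries an immunophilin, either FKBP51, the product of Fkbp5, or FKBP52, the product of Fkbp4. FKBP51 on the receptor complex lowers its affinity for hormone, and Fkbp5 is itself a target gene of the receptor. Cdc37 brings protein kinases to Hsp90, Bag1 releases nucleotide and client from Hsp70 and also binds the glucocorticoid receptor, and Hspa4 is an Hsp110-type exchange factor of the Hsp70 family. The question that the design puts to these genes is whether loss of Fkbp5 in forebrain neurons, ELS, or both together change the expression of its chaperone partners.

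Read counts summed to between 18347283 and 26555623 per mouse, and the 9 genes took between 0.477% and 0.660% of them. Fkbp5 itself was lower in every Fkbp5Nex mouse, at 8.71 to 26.5 CPM (the read count scaled to the size of its library) against 47.7 to 63.4 CPM in Fkbp5lox/lox mice, with a fitted log2 fold change of -2.04 ± 0.10 (SE; Benjamini-Hochberg adjusted p = 5.75e-12, edgeR quasi-likelihood). The pyramidal neuron markers summed to between 4429 and 6146 CPM in each mouse, with none of the 6 at 0. The sum does not show every difference. In Fkbp5lox/lox ELS mouse 8 the mean deviation of these markers from their group means was -0.97 on the log2 scale. A pair of Fkbp5Nex control mice stood apart for the chaperones. Mouse 12 had the lowest level of all 24 mice for 6 of the 9 genes and mouse 52 the highest for 7 of the 9, so results that rest on them are also given without both. Their depths, 21350492 and 22026853 counts, lay within those of the other mice, but mouse 12 had the most genes with a read of all 24 mice (23987) and the highest mitochondrial share of counts (7.47%), and mouse 52 the fewest genes (22868). The labels give no batch, and the p-values given here measure the spread between these mice. Those of edgeR and DESeq2 do so after terms for unlabelled variation (surrogate variables) were fitted, unless stated otherwise. The paper assigned ELS to dams with their litters, and no sample name gives a litter. Mice of the same litter are thus counted as independent here.

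Of the 9 genes, 6 have an entry among the promoters of RefSeq (GRCm38.p6), which run from 250 bases before to 50 bases after a start. The entries cover Hsp90b1, Ptges3, Stip1, Hspa4, Bag1 and Cdc37. They were searched on both strands for an ER stress element (CCAAT, 9 free bases, CCACG), a sequence known from promoters of endoplasmic reticulum chaperones, and for the inverted pairs GAANNTTC and TTCNNGAA out of which heat shock elements are built and which can overlap each other. Hsp90b1 alone of the 6 held an ER stress element, and it held 2 of them, whereas 0.119% of all 32851 promoters held at least 1. Cdc37 held TTCNNGAA once, a pair found in 8.52% of all promoters, and none of the 6 held GAANNTTC, found in 7.86%. The promoter stretches upstream of both genes are shown because they carry these matches, in capitals. That of Hsp90b1 lies on the minus strand at chr10:86705510-86705694 and that of Cdc37 on the minus strand at chr9:21149983-21150184, both ending just before the annotated gene.
Hsp90b1: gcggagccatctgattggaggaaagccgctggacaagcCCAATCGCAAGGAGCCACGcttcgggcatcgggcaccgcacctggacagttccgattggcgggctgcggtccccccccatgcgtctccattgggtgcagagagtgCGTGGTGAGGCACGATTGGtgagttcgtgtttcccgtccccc
Cdc37: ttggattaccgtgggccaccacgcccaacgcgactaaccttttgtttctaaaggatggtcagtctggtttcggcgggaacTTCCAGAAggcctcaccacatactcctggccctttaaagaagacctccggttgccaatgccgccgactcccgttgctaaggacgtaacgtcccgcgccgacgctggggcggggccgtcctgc

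Counted from the RefSeq start of Hsp90b1, the elements begin at -212 and -107, the latter on the opposite strand. Of the 20 endoplasmic reticulum genes listed for comparison, 18 had a promoter entry and 6 held the element, namely Calr, Canx, Creld2, Dnajc3, Hspa5 and Pdia6. The elements are shown with CCAAT and CCACG in capitals, read 5′ to 3′ along their own strand. Those of Hsp90b1 are set beside those of 4 genes of that list whose levels varied with it between mice, as described with the correlations. Those of Creld2 and Dnajc3 are not shown, and Pdia3, which also varied with Hsp90b1, had a promoter entry without the element.
Hsp90b1, first element (chr10:86705638-86705656, minus strand): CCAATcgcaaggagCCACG
Hsp90b1, second element (chr10:86705533-86705551, plus strand): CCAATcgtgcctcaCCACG
Calr (chr8:84847075-84847093, plus strand): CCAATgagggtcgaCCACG
Hspa5 (chr2:34772025-34772043, plus strand): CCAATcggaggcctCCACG
Canx (chr11:50325800-50325818, minus strand): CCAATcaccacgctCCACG
Pdia6 (chr12:17266491-17266509, plus strand): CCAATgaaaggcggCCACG

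To compare genes with each other, reads were scaled to depth and to the length of the annotated coding transcripts (FPKM). Hspa8, the constitutive Hsp70 of the cytosol, stood at 741 ± 62.2 FPKM (SD, n = 24 mice) and ranked 20 among 14076 protein-coding genes tested. Hsp90ab1, the constitutive cytosolic Hsp90, stood at 693 ± 45.8 FPKM with rank 22. Hsp90aa1, the cytosolic Hsp90 that heat shock induces in many cells, stood at 410 ± 44.9 FPKM with rank 53 and was below Hsp90ab1 in 24 of 24 mice. The remaining members were lower per length. Hsp90aa1 was on average 4.93 times as high as Stip1, the next in order, in the same mouse. Stip1 was at 83.0 ± 6.51 FPKM, Hspa4 at 67.0 ± 4.31 and Bag1 at 64.98 ± 5.16. Hsp90b1 was at 64.9 ± 4.16 FPKM, Ptges3 at 49.8 ± 4.62 and Cdc37 at 15.7 ± 1.19. Neighbours in this order did not all differ beyond their spread, since Bag1 was above Hsp90b1 in 12 of 24 mice and Hspa4 above Bag1 in 18 of 24. Over all annotated exons instead, Hspa8 fell behind Hsp90ab1 in every mouse, at 412 against 582 FPKM, so the order at the top depends on which exons are counted. The level of Cdc37 rests on 7851 bases of annotated coding transcript exons, the most of the 9 genes. By counts, without scaling to length, it ranked 1773 among 46983 genes, ahead of Ptges3 (2301) and Bag1 (2661).

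**Figure D1:**
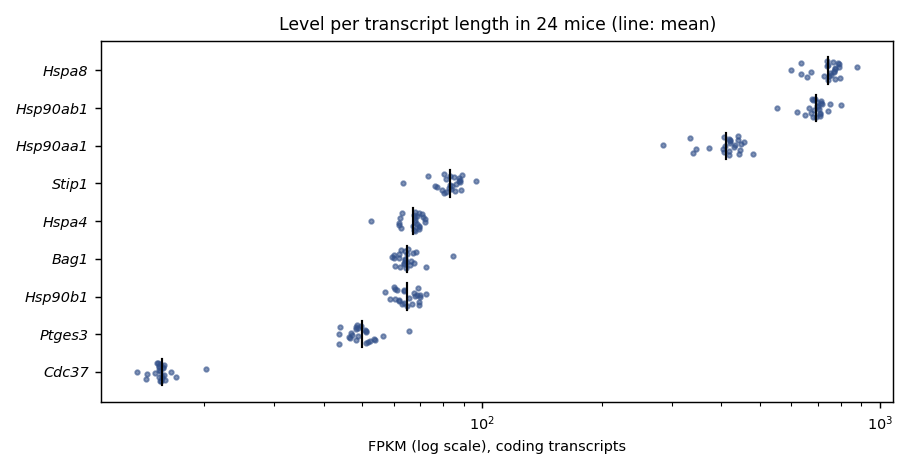
Level of each chaperone gene in FPKM on a log axis, with 1 point per mouse (24 mice) and a line at the mean. Hspa8, Hsp90ab1 and Hsp90aa1 lie between 285 and 878 FPKM in every mouse and the other 6 genes between 13.6 and 96.7 FPKM.

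Part of these genes' sequence is shared with near copies elsewhere. Of all 50-base stretches of the annotated transcripts, 47.5% of those of Hsp90aa1, 39.4% of those of Hspa8 and 19.6% of those of Ptges3 also occur in other genes, mostly processed pseudogenes. The share was 9.75% for Hsp90b1, 5.59% for Stip1, 3.44% for Hsp90ab1 and 0.122% for Cdc37, and no such stretch was found for Hspa4 and Bag1. How reads from such stretches were counted is not given in the sources used here, so the levels of Hsp90aa1, Hspa8 and Ptges3 are uncertain. The pseudogene that shares most with Hsp90aa1, Gm12346, had at most 574 reads in a mouse where Hsp90aa1 had at least 21195, whereas Ptges3-ps reached 593 reads against at least 1724 for Ptges3. Hsp90b1 also overlaps an antisense pseudogene, 1810014B01Rik, with at most 102 reads, and counting by strand is not stated.

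None of the 9 genes differed between genotypes or with ELS at the study's threshold, a false discovery rate (FDR) of 2%, in edgeR's quasi-likelihood test on all 16209 genes tested. This held for the genotype effect, where 0.117% of all genes tested passed, and for the ELS effect and the interaction, where 0.0% of genes did. It held for ELS within Fkbp5lox/lox mice (0.0% of all genes) and within Fkbp5Nex mice (0.0%), and for genotype within control mice (0.0494%) and within ELS mice (0.0123%). DESeq2's Wald test also called none of the 9 in any of the 7 comparisons. At an unadjusted p below 0.05, 0 of the 9 passed in each comparison by either tool, against background shares in the edgeR test of 11.5% for genotype, 3.56% for ELS, 4.02% for the interaction, 4.86% for ELS within Fkbp5lox/lox, 2.8% for ELS within Fkbp5Nex, 8.69% for genotype within control mice and 6.59% for genotype within ELS mice. For no member did the log2 CPM of the groups compared fail to overlap, where 0.0925% of all genes did so for ELS within Fkbp5lox/lox, 0.0679% for ELS within Fkbp5Nex, 0.16% for genotype within control mice and 0.173% for genotype within ELS mice. The largest fitted difference of the 63 was -0.09 on the log2 scale (Ptges3, genotype within ELS mice), and the 95% intervals lay between -0.21 and 0.20, that is between a decrease of 13.6% and an increase of 14.99%. Changes within these intervals are not excluded for single genes. The intervals are not a limit of detection, since a change beyond them could also miss an FDR of 2%. By comparison the within-group SD of the 9 genes ranged from 0.09 to 0.18 on the log2 scale, with a median of 0.11, where the median over all genes tested was 0.18.

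**Figure D2:**
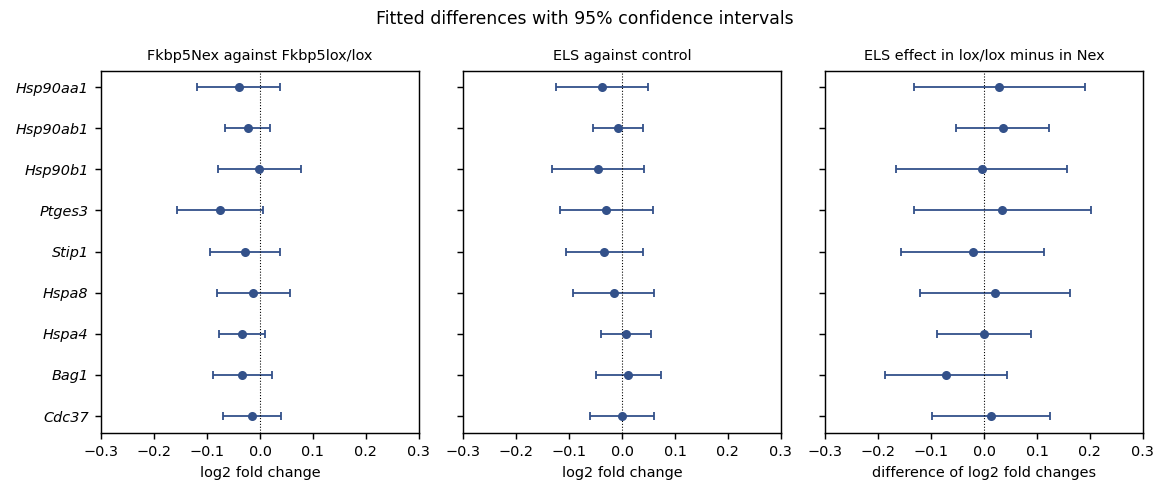
Fitted difference (point) and 95% confidence interval (bar) of each chaperone gene on the log2 scale for Fkbp5Nex against Fkbp5lox/lox, ELS against control, and the ELS effect in Fkbp5lox/lox minus that in Fkbp5Nex. Every interval spans 0, the widest reaching from -0.13 to 0.20 (Ptges3, interaction).

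Hsp90aa1 (chr12:110690605-110702728, minus strand, GRCm38) ranged from 1150 to 1627 CPM in Fkbp5lox/lox control mice (median 1412) and from 1165 to 1507 CPM with ELS (median 1373). In Fkbp5Nex mice it ranged from 963 to 1541 CPM under control conditions (median 1444) and from 1128 to 1492 CPM with ELS (median 1416). The 4 groups overlapped almost entirely, and the lowest value in each group lay well below the median. The genotype effect was -0.04 ± 0.04 (log2, SE), the ELS effect -0.04 ± 0.04 and the interaction 0.03 ± 0.08, with adjusted p of 0.717, 0.9995 and 0.9995 by edgeR.

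Hsp90ab1 (chr17:45567775-45573271, minus strand) was the steadiest in the Fkbp5Nex ELS mice, between 1704 and 1797 CPM (median 1745), and spread most in the Fkbp5Nex control mice, between 1392 and 2019 CPM (median 1784). In Fkbp5lox/lox mice it lay between 1635 and 1789 CPM under control conditions (median 1728) and between 1567 and 1870 CPM with ELS (median 1752). Each group's median fell inside the range of every other group. The genotype effect was -0.02, with a 95% interval from -0.07 to 0.02, and the ELS effect -0.01, with an interval from -0.05 to 0.04.

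The balance of the stress-inducible to the constitutive cytosolic Hsp90 was taken as the ratio of Hsp90aa1 to Hsp90ab1 counts in the same mouse, which no library scaling touches. The ratio was 0.816 ± 0.0716 (SD, n = 6) in Fkbp5lox/lox control mice and 0.782 ± 0.0523 with ELS, and 0.783 ± 0.0700 in Fkbp5Nex control mice and 0.791 ± 0.0721 with ELS. All values lay between 0.657 and 0.909, and the groups overlapped. The log2 ratio differed by -0.02 between genotypes (p = 0.653), by -0.02 with ELS (p = 0.660) and by -0.07 for the interaction (p = 0.462) in two-sided exact permutation tests. Within the single groups the exact permutation p lay between 0.379 (ELS within Fkbp5lox/lox, a difference of -0.06) and 0.877 (ELS within Fkbp5Nex, a difference of 0.01), and the Benjamini-Hochberg adjusted p over the 7 comparisons was 0.877 throughout.

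Hsp90b1 (chr10:86690209-86705509, minus strand), which encodes Grp94, the Hsp90 of the endoplasmic reticulum that folds secreted and membrane proteins, had the lowest within-group SD of the members (0.09, log2). It ranged from 178 to 197 CPM in Fkbp5lox/lox control mice (median 186) and from 166 to 197 CPM with ELS (median 175). In Fkbp5Nex mice it ranged from 161 to 204 CPM under control conditions (median 193) and from 170 to 195 CPM with ELS (median 176). The medians of both ELS groups lay below those of both control groups, yet the ranges overlapped. The fitted ELS effect was -0.05 ± 0.04 (log2, SE; 95% interval -0.13 to 0.04; edgeR unadjusted p = 0.291). Without surrogate variables, the terms of the model that stand for unlabelled variation between mice, it was -0.08 with an unadjusted p of 0.0406 in the same edgeR test, and it did not pass the FDR.

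Stip1 (chr19:7020702-7039967, minus strand), the adaptor between Hsp70 and Hsp90, had group medians between 174 and 185 CPM and lay between 133 and 204 CPM over all mice. Its genotype effect was -0.03 (95% interval -0.10 to 0.04) and its ELS effect -0.03 (-0.11 to 0.04). Cdc37 (chr9:21133222-21149982, minus strand), the kinase adaptor, had group medians between 121 and 124 CPM and differed by -0.01 between genotypes (-0.07 to 0.04) and by 0.00 with ELS (-0.06 to 0.06). It varied least in the Fkbp5Nex ELS mice, from 120 to 124 CPM, and most in the Fkbp5Nex control mice, from 107 to 159 CPM.

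Ptges3 (chr10:128058954-128077272, plus strand), the gene of the co-chaperone p23, gave the largest genotype estimate of the 9. It ranged from 87.6 to 108 CPM in Fkbp5lox/lox control mice (median 103) and from 92.9 to 113 CPM with ELS (median 95.7). In Fkbp5Nex mice it ranged from 87.6 to 131 CPM under control conditions (median 102) and from 87.9 to 99.6 CPM with ELS (median 96.9). The groups overlapped, and the mean of the Fkbp5Nex control mice, 103 CPM, was the highest of the 4 with mouse 52 in it. The fitted genotype effect was -0.08 ± 0.04 (log2, SE; 95% interval -0.16 to 0.01; edgeR unadjusted p = 0.0676, adjusted p = 0.468) with surrogate variables in the model. Without surrogate variables the estimate was -0.01 (edgeR unadjusted p = 0.869).

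Hspa8 (chr9:40800984-40810087, plus strand) ranged from 1569 to 1900 CPM in Fkbp5lox/lox control mice (median 1783) and from 1520 to 1841 CPM with ELS (median 1800). In Fkbp5Nex mice it ranged from 1432 to 2101 CPM under control conditions (median 1848) and from 1517 to 1890 CPM with ELS (median 1804). The medians were close and the ranges overlapped, with a genotype effect of -0.01 (95% interval -0.08 to 0.06) and an ELS effect of -0.02 (-0.09 to 0.06). Hspa4 (chr11:53259814-53300457, minus strand) had group medians between 313 and 316 CPM, a genotype effect of -0.03 (-0.08 to 0.01) and an ELS effect of 0.01 (-0.04 to 0.05).

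Bag1 (chr4:40936398-40948294, minus strand) had the largest interaction estimate of the 9 genes. It ranged from 81.5 to 97.7 CPM in Fkbp5lox/lox control mice (median 86.6) and from 85.8 to 91.1 CPM with ELS (median 86.8). In Fkbp5Nex mice it ranged from 80.1 to 114 CPM under control conditions (median 82.3) and from 83.3 to 92.3 CPM with ELS (median 87.0). The ranges overlapped, and the Fkbp5Nex control group held both the lowest and the highest value of all mice. The interaction was -0.07 ± 0.06 (log2, SE; edgeR unadjusted p = 0.206) and the genotype effect within control mice -0.07 ± 0.04 (edgeR unadjusted p = 0.0807, adjusted p = 0.610). Without surrogate variables both directions turned, to 0.01 for the interaction and 0.01 for genotype within control mice, and without mice 12 and 52 the latter was -0.13 ± 0.06 (edgeR unadjusted p = 0.0513, adjusted p = 0.945).

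**Figure D3:**
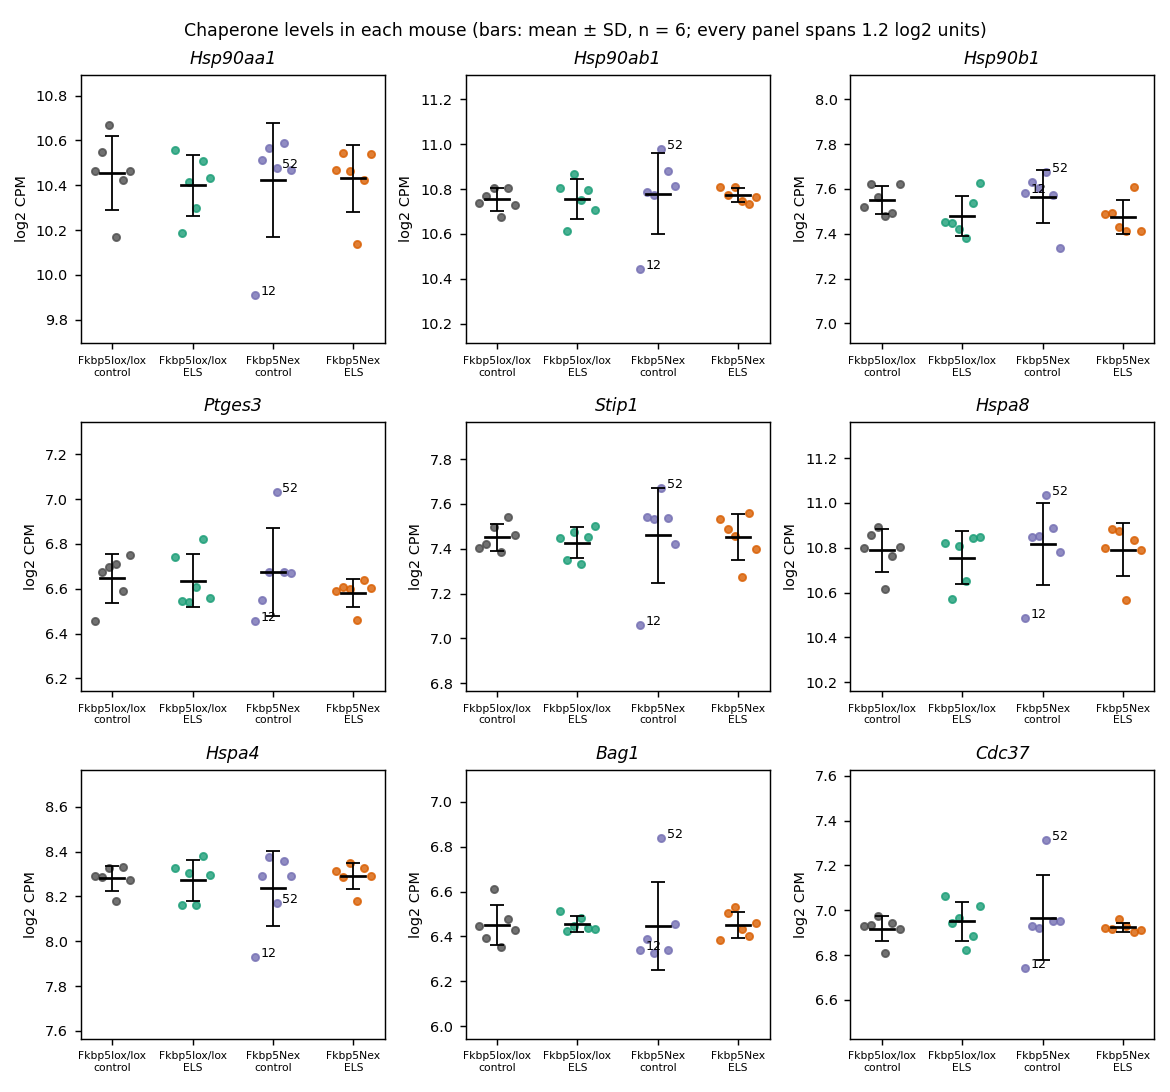
Level of each chaperone gene in log2 CPM, with 1 point per mouse in 4 groups and the mean ± SD (n = 6) in black; every panel spans the same 1.2 log2 units, and mice 12 and 52 of the Fkbp5Nex control group are numbered. Groups overlap in every panel, and the Fkbp5Nex control group has the widest error bars throughout.

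Of the fitted genotype effects, 9 of 9 were below 0, with a median of -0.03 where all genes tested had a median of 0.00, and 7 of 9 were below 0 for ELS (median -0.02 against 0.00). None of these estimates passed the test, the genes covary between mice, and without surrogate variables 29 of the 63 estimates changed sign, so the directions are given as a description. The spread of the Fkbp5Nex control group was the largest of the 4 groups for 9 of 9 genes, with a coefficient of variation of 15.4% for Hsp90aa1 and 15.02% for Bag1. Without mice 12 and 52 it was 3.74% for Hsp90aa1 and 4.04% for Bag1 (n = 4), and it remained high for Hsp90b1, at 8.95%, where mouse 64 was the lowest.

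Between mice of the same group, the levels of several cytosolic chaperones were correlated. Each gene's log2 CPM was taken as a deviation from its group mean, and all 36 pairs were tested with 100000 permutations of mice within groups. By Pearson's r, 12 of the 36 pairs passed a Benjamini-Hochberg adjusted p of 0.05, and 13 of 36 did by Spearman's rho. The share of all gene pairs that would pass was not determined. Genes of other functions reached higher r with single members, up to 0.96 (Acot7 with Hsp90ab1). The counts of pairs are thus not a trait particular to the chaperones. Hsp90aa1 and Hspa8 gave r = 0.89 and rho = 0.72 over 24 mice (adjusted permutation p = 0.00072 and 0.00864), and r = 0.78 once the 2 mice with the most extreme Hsp90aa1 were left out. Stip1 and Hspa8, the adaptor and the Hsp70 it binds, gave r = 0.87 and rho = 0.61 (adjusted permutation p = 0.00036 and 0.0274), with a raw p for r at 1e-05, the smallest that these permutations can give, and r = 0.73 without the 2 farthest mice. Among Hsp90aa1, Hsp90ab1, Stip1, Hspa8 and Hspa4, r ranged from 0.68 to 0.89 over 10 pairs, of which 9 passed by r and 8 by rho, and 3 passed by r with the surrogate variables regressed out.

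Other pairs leaned on the mice that stood apart. Bag1 and Cdc37 gave r = 0.80 and rho = 0.58 (adjusted permutation p = 0.00642 and 0.0274), but r = 0.51 without the 2 mice most extreme for Bag1 and 0.42 without mice 12 and 52. Hsp90ab1 and Stip1 gave r = 0.81 and rho = 0.55 (adjusted permutation p = 0.00642 and 0.0274), but r = 0.43 without the 2 farthest mice, and Ptges3 and Cdc37 went from r = 0.60, which did not pass (adjusted permutation p = 0.122), to -0.08. The last relation thus rested on those mice. Hsp90aa1 with Hspa8 held at r = 0.92 in the 22 mice without 12 and 52. There 11 of the 36 pairs passed by Pearson's r but 6 by Spearman's rho, against 13 by rho in all mice. Among the 10 pairs of Hsp90aa1, Hsp90ab1, Stip1, Hspa8 and Hspa4, 9 passed there by r and 4 by rho. With the surrogate variables regressed out, 8 of 36 passed, r for Hsp90aa1 with Hspa8 was 0.78 and that for Hsp90aa1 with Hsp90ab1 fell from 0.75 to -0.04.

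**Figure D4:**
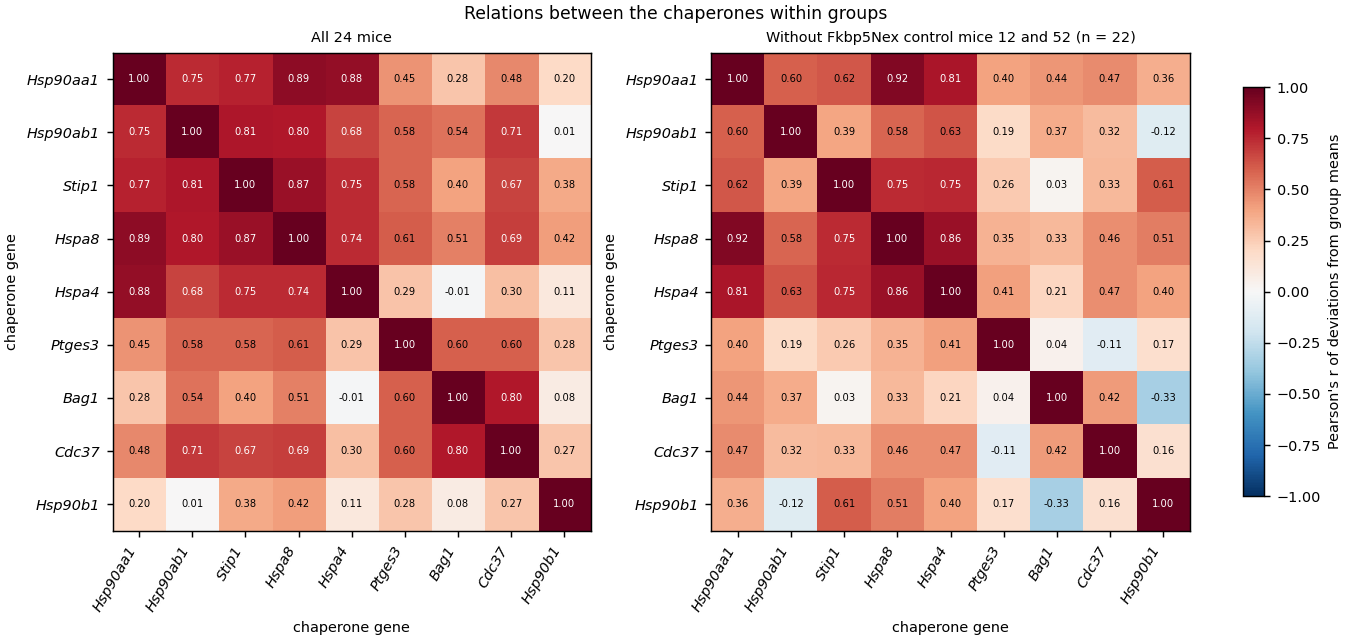
Pearson's r between the chaperone genes across mice, taken on deviations of log2 CPM from the group mean, in all 24 mice (left) and without mice 12 and 52 of the Fkbp5Nex control group (right, 22 mice); red is positive and blue negative. The block of Hsp90aa1, Hsp90ab1, Stip1, Hspa8 and Hspa4 has r of 0.68 to 0.89 on the left, and the row of Hsp90b1 has r of 0.01 to 0.42.

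Hsp90b1 gave r between 0.01 (with Hsp90ab1) and 0.42 (with Hspa8) with the other 8 genes, and none of these 8 pairs passed by Pearson's r. By Spearman's rho 2 of the 8 passed, those with Hspa8 (rho = 0.58, adjusted permutation p = 0.0274) and Stip1 (rho = 0.56, adjusted permutation p = 0.0274). Whether Hsp90b1 stands apart depended on the setting. By Pearson's r 2 of the 8 pairs passed without mice 12 and 52, and 2 of 8 with the surrogate variables regressed out, where r was 0.74 with Stip1 and 0.72 with Hspa8. Of 16208 other genes, the one whose deviations were most like those of Hsp90b1 was Calr, the calcium-binding chaperone calreticulin of the endoplasmic reticulum (r = 0.75), followed by Stard3 (0.73) and Serf2 (0.72). Other chaperones of the endoplasmic reticulum came soon after, with the disulfide isomerase gene Pdia3 in place 4 (r = 0.71), Hspa5, the gene of the Hsp70 BiP, in place 5 (0.70), Canx, calnexin, in place 10 (0.67) and Pdia6 in place 11 (0.66). Among the 20 endoplasmic reticulum genes listed, r ranged from 0.05 (Dnajb9) to 0.75, with a median of 0.46 against -0.01 over all genes tested. These genes share libraries with Hsp90b1, the median for Ptges3 and Cdc37 with the same list was 0.50 and 0.47, and the values are a description only. Without mice 12 and 52, r with Calr was 0.80 and the median over the list 0.39, where Stip1 had 0.40, Hspa4 0.39, Ptges3 0.25 and Cdc37 0.03, so a like median was not particular to Hsp90b1. With the surrogate variables regressed out, r with Calr was 0.88 and the median 0.52, while the medians of the other 8 genes with the list lay between -0.18 (Bag1) and 0.35 (Stip1). Of the 6 listed genes that hold the ER stress element, r with Hsp90b1 ran from 0.34 (Creld2) to 0.75 (Calr). Pdia3 (0.71) and Pdia4 (0.56), whose promoter entries did not hold it, lay within that range.

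**Figure D5:**
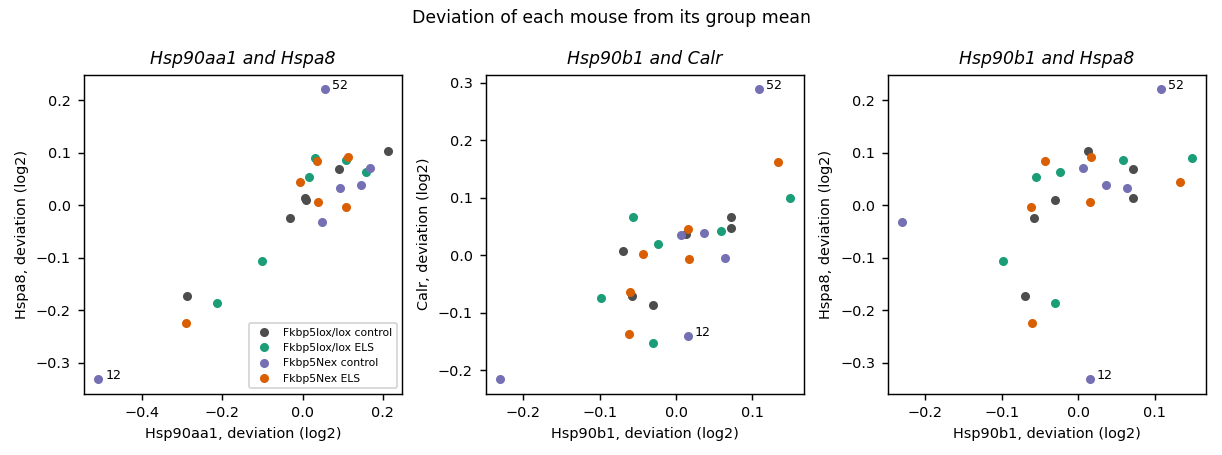
Deviation of each mouse from its group mean in log2 CPM for Hsp90aa1 against Hspa8 (left), Hsp90b1 against Calr (middle) and Hsp90b1 against Hspa8 (right), coloured by group with mice 12 and 52 numbered. Pearson's r is 0.89, 0.75 and 0.42, and mouse 12 is lowest for Hsp90aa1 and Hspa8 but near its group mean for Hsp90b1.

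The other members were most like genes of other functions. For Hsp90aa1 these were Dynlt3 (r = 0.93), Pak1 (0.92) and Sucla2 (0.92), and for Hspa8 they were Sucla2 (0.95), Mdh1 (0.93) and Tmx2 (0.93). For Hsp90ab1 they were Acot7 (0.96), Atp6v1g2 (0.94) and Atp6v0d1 (0.93), and for Stip1 Pvalb (0.90), Hspa9 (0.90), the mitochondrial Hsp70, and Rabepk (0.89). Apart from Hspa9, none of these is a chaperone of the heat shock families. Hspa4 was most like Lnx1 (0.95), Socs2 (0.95) and Map7d2 (0.94), Bag1 like BC031181 (0.93), Clta (0.92) and Rpl6 (0.91), Cdc37 like Coa3 (0.94), Cuedc2 (0.93) and Glrx5 (0.92), and Ptges3 like Mrpl38 (0.84), Set (0.82) and Tiprl (0.82). With the surrogate variables regressed out several of these fell, that of Hsp90ab1 with Atp6v0d1 to -0.30 and that of Hspa4 with Map7d2 to 0.12.

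Cell type markers moved with the same mice and, in part, with genotype. In Fkbp5Nex control mouse 12 the summed astrocyte markers (3623 CPM) and microglia markers (377 CPM) were the highest of all 24 mice, and the dentate granule cell markers (590 CPM) the second highest, with Hsp90aa1 at its lowest. Mouse 52, the highest for 7 of the chaperones, also had high astrocyte markers (2861 CPM, second highest) and microglia markers (302 CPM, the third highest). The oligodendrocyte markers were low in both, at 1536 CPM in mouse 12 and 2434 CPM in mouse 52. Their median over all 24 mice was 3262 CPM. Fkbp5 was at 26.5 CPM in mouse 12, the highest of the Fkbp5Nex control mice, and at 14.4 CPM in mouse 52. It was at 23.1 CPM in Fkbp5Nex ELS mouse 60, the highest of its group. That mouse was also the lowest of its group for Hsp90aa1, Ptges3, Stip1, Hspa8 and Hspa4. Fkbp5lox/lox groups held such mice too. In the control group mouse 44 was the lowest for every member but Ptges3. In the ELS group mouse 8 was the lowest for Hsp90aa1, Hsp90ab1, Hspa8, Hspa4 and Bag1. Mice 44, 8 and 60 had the highest dentate markers of their groups, at 496, 851 and 428 CPM. In relations chosen after the values were seen, 99 in all, the deviations of Hspa4 went with the dentate markers at r = -0.85 and rho = -0.71 over 24 mice (adjusted permutation p = 0.00346 and 0.0393; r = -0.75 without the 2 farthest mice) and with the choroid plexus markers at r = 0.77 and rho = 0.72 (adjusted permutation p = 0.00346 and 0.0393; r = 0.77). Hspa4 also went with the astrocyte markers at r = -0.76 and rho = -0.68 (adjusted permutation p = 0.00544 and 0.0393; r = -0.63), and by r alone with the oligodendrocyte (0.73), microglia (-0.71) and immediate early (0.64) lists. Hsp90aa1 gave r = -0.77 and rho = -0.46 with the dentate markers (adjusted permutation p = 0.0103 and 0.287; r = -0.57) and passed by r alone with the choroid plexus (0.62) and oligodendrocyte (0.61) lists. These 9 were all that passed by r. For Hsp90b1, Bag1, Cdc37, Ptges3, Stip1, Hspa8 and Hsp90ab1 no relation with a marker list passed by Pearson's r. With the surrogate variables regressed out, the median r of Hspa4 over single marker genes went from -0.73 to 0.18 for the dentate list. It went from 0.75 to -0.25 for the choroid plexus list, and that of Hsp90aa1 from -0.73 to -0.12 for the dentate list. Surrogate variables are fitted to the variation between these same mice and can take up marker differences, so this setting cannot decide. Without mice 12 and 52 the same medians were -0.60 and 0.75 for Hspa4 and -0.56 for Hsp90aa1.

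Between genotypes, 3 of the 5 dentate markers were lower in Fkbp5Nex mice by edgeR, namely Prox1 (log2 fold change -0.49, adjusted p = 0.000328), Dsp (-1.07, adjusted p = 0.000328) and Npnt (-0.69, adjusted p = 8.4e-05). Their list summed to between 272 and 496 CPM in Fkbp5lox/lox control mice and 227 and 851 CPM with ELS, and to between 162 and 590 CPM in Fkbp5Nex control mice and 189 and 428 CPM with ELS. Ttr, a choroid plexus marker, was lower by -3.07 (adjusted p = 0.00259), with Folr1 and Kcnj13 of that list at 0 in at least 1 mouse and below the filter. That list summed to between 16.5 and 4538 CPM in Fkbp5lox/lox control mice, 23.8 and 1477 CPM with ELS, 14.2 and 3374 CPM in Fkbp5Nex control mice and 20.9 and 1487 CPM with ELS. Of the pyramidal markers, 1 of 6 was lower, Neurod6 (-0.90, adjusted p = 0.0090), the gene into which Nex-Cre is placed. Of these 5 marker calls, 0 held without mice 12 and 52 with surrogate variables refitted and 0 without surrogate variables, 1 (Dsp) held without these mice and without surrogate variables, and 5 held with DESeq2, while Fkbp5 passed in each. The direction stayed negative for the 5 in these settings, with Ttr at -0.83 without surrogate variables and -0.54 without the mice as well. The other marker lists were those of inhibitory neurons, astrocytes, oligodendrocytes, microglia, endothelium, thalamus and blood and the immediate early genes. Of their genes, 0 passed for genotype or ELS by edgeR. An unadjusted p below 0.05 for genotype was found for 5 of 8 thalamus markers, where 11.5% of all genes tested had one. The part of cell composition in the values of the chaperones was not tested.

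Around the 9 genes, 87 further genes of protein folding and receptor complexes were tested by edgeR. Of these 1, Fkbp5, passed for genotype and 0 for ELS or the interaction, where 0.117%, 0.0% and 0.0% of all genes tested passed. At an unadjusted p below 0.05 there were 13, 6 and 2 of the 87, where 11.5%, 3.56% and 4.02% of all genes tested were below it. The other immunophilins of the Hsp90 complex did not pass for genotype. Fkbp4, which competes with Fkbp5 for the receptor complex, gave -0.06 ± 0.04 (log2, SE), Ppid, cyclophilin 40, -0.04 ± 0.03, the phosphatase Ppp5c -0.06 ± 0.03 and Fkbp8 0.04 ± 0.02. Fkbpl was at -0.18 ± 0.06 (edgeR unadjusted p = 0.00409, adjusted p = 0.201). For ELS the 6 immunophilin genes had a median of 0.00, the smallest unadjusted p being that of Fkbp5 itself (0.23 ± 0.10, unadjusted p = 0.0365), and for the interaction that of Ppp5c (0.06, unadjusted p = 0.277).

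Of the receptors that these chaperones serve, the mineralocorticoid receptor Nr3c2 had a mean of 195 CPM, and the glucocorticoid receptor Nr3c1 stood at 85.5 CPM, Pgr at 27.5 and Esr1 at 6.36. Esr2 had 0 to 14 reads per mouse and was not tested. For genotype Nr3c2 gave -0.12 ± 0.04 (edgeR unadjusted p = 0.00478, adjusted p = 0.215), Nr3c1 -0.03 ± 0.05, Pgr 0.06 ± 0.04 and Esr1 -0.01 ± 0.13. For ELS these 4 genes lay between -0.08 (Esr1) and 0.04 (Nr3c2), and for the interaction between -0.14 (Esr1) and -0.08 (Pgr). None of the 4 passed.

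The remaining lists gave no call either. For each, the gene with the smallest edgeR p is named, and for ELS and the interaction the Benjamini-Hochberg adjusted p of these genes was 0.9995 throughout. The 20 endoplasmic reticulum genes had 17 estimates below 0 for genotype (median -0.05) and 18 below 0 for ELS (median -0.04), where the median over all genes was 0.00 for both. Many of these genes varied with Hsp90b1 between mice, so their directions are not independent of each other. The counts of directions for this and the following lists are a description only. Dnajb11, a J-protein partner of BiP, led for genotype (-0.11, adjusted p = 0.267 by edgeR), Xbp1, a transcription factor of the unfolded protein response, for ELS (-0.09), and Herpud1 for the interaction (-0.16). Among 13 other Hsp70 family genes 7 were below 0 for genotype and 8 for ELS (medians 0.00 and -0.01), with Hspa9 first for genotype (-0.06, adjusted p = 0.346 by edgeR), Hspa5 for ELS (-0.13) and the Hsp110 gene Hsph1 for the interaction (0.09).

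Of 14 genes that heat shock induces, 9 were below 0 for genotype (median -0.01) and 11 for ELS (median -0.04), and Hspd1 came first for genotype (-0.05, adjusted p = 0.479 by edgeR), the small heat shock protein gene Cryab for ELS (-0.12) and Hsph1 for the interaction (0.09). Of 3 heat shock factors, Hsf1 came first for genotype (0.05, adjusted p = 0.719 by edgeR) and the interaction (-0.04) and Hsf2 for ELS (-0.06). The 21 other Hsp90 partners had 12 estimates below 0 for genotype and 9 for ELS (medians -0.02 and 0.01), with Tomm70a first for genotype (-0.07, adjusted p = 0.372 by edgeR), Cdc37l1 for ELS (-0.10) and Itgb1bp2, at a mean of 0.545 CPM, for the interaction (-0.77). The 14 J-proteins and exchange factors had 8 below 0 for genotype and 11 for ELS (medians -0.01 for both), with Dnajb2 first for genotype (0.11, adjusted p = 0.211 by edgeR) and the interaction (-0.13) and Dnaja1 for ELS (-0.04). The 7 mitochondrial chaperones had 6 below 0 for genotype and 4 for ELS (medians -0.03 and -0.01), with Hspa9 again first for genotype, Hspe1 for ELS (-0.04) and Grpel1 for the interaction (-0.12).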

How the data were processed

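The deposited table holds whole-number read counts per gene, which the authors obtained, per the submitters' processing notes, with HISAT2 (2.0.5) and featureCounts (1.5.0-p3); the genome build, annotation and strand setting are not given in the sources used here. Counts were used as deposited. Genes with at least 10 counts in all mice of some group were tested (16209) with edgeR (4.0.16): TMM scaling, a group model with 5 surrogate variables (sva 3.50.0) and quasi-likelihood tests of 7 contrasts, at an FDR of 0.02. CPM use TMM-scaled library sizes, log2 CPM a prior count of 2. DESeq2 (1.42.0) was an alternative, and the closing section gives the effect of others. The code was tested on simulated data, in which 0 surrogate variables were found, so the model with such terms was not tested. At a simulated log2 change of 0.5, 72 of 100 changed genes were recovered for genotype. For ELS within Fkbp5lox/lox it was 55 of 100. Symbols are those of the table; lengths come from GENCODE vM21 (GRCm38), to which 46488 genes matched by identifier. No per-sample column was left out. The authors removed an outlying sample from a larger set of libraries; which one is not given in the sources used here, so it may be among the 24 used. The 9 genes, the gene lists and the markers were chosen with earlier results of these data known. Of further genes, named were the 3 most like each member, those that passed a test, the smallest unadjusted p of each list for the main effects and the interaction, and all immunophilins and steroid receptors, of which 1 item is not reported here. Each library is from a separate mouse; within-group pairs differed beyond counting noise (25.7% to 63.6% of genes by more than 2 Poisson SD).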

Additional observations from a re-analysis of the deposited data

Results flagged for a closer look

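Each of 40 sets of 6 values (9 genes and the Hsp90aa1 to Hsp90ab1 ratio in 4 groups) was examined for a mouse far from the other 5, by the gap to its nearest neighbour as a share of the whole range, with 0.625 as the critical value; chance alone would mark about 5% of sets, and the genes are not independent of each other. In the Fkbp5Nex control group, mouse 12 was far below the rest for Hsp90aa1 (963 CPM, next lowest 1418), mouse 64 for Hsp90b1 (161 CPM, next 190), and mouse 52 far above for Ptges3 (131 CPM, next highest 102), Bag1 (114 CPM, next 87.6) and Cdc37 (159 CPM, next 124). In the Fkbp5Nex ELS group, mouse 60 was far below the rest for Hsp90aa1 (1128 CPM, next lowest 1375), Ptges3 (87.9 CPM, next 96.3), Hspa8 (1517 CPM, next 1768) and the log2 ratio of Hsp90aa1 to Hsp90ab1 (-0.61, next -0.34). In the Fkbp5lox/lox control group, mouse 44 was far below for Cdc37 (112 CPM, next lowest 121).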

How the results depend on the processing

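The count of chaperone genes called stayed at 0 in every comparison under every alternative run, including each mouse left out in turn. The count over all genes was less stable. For genotype (19 genes) it was 70 with DESeq2's Wald test, 3 without surrogate variables, 50 at an FDR of 0.05 and 4 to 32 with 1 mouse left out (4 without Fkbp5lox/lox control mouse 74, 32 without Fkbp5Nex control mouse 54). Without both mice 12 and 52, a setting added after the data were seen, it was 2 with surrogate variables and 4 without them. For genotype within control mice (8 genes) the same settings gave 53, 2, 29, 2 to 14, 1 and 2, and a fit to only the mice compared gave 1. For genotype within ELS mice (2 genes) DESeq2 gave 4. For ELS the count went from 0 to 1 without a filter on low counts, within Fkbp5Nex likewise to 1, and within Fkbp5lox/lox to 1 with DESeq2; leaving out mice gave 0 to 1 for ELS and for ELS within Fkbp5Nex, the 1 being without Fkbp5lox/lox ELS mouse 68. The cause was not tested.

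Of the 63 estimates for the chaperones, the sign differed for 29 without surrogate variables, 10 without a filter, 4 with filterByExpr and 0 with DESeq2 or its size factors, and an unadjusted p fell below 0.05 for 1, 2, 1 and 0 of them. It differed for 12 without mice 12 and 52, 25 without both mice and surrogate variables, and 6 of 36 in fits to only the mice compared, with 0, 0 and 1 (Ptges3) such p. With 1 mouse left out it did so for 8 of 1512 estimates, those of Hsp90aa1, Ptges3 and Bag1. The ratio of Hsp90aa1 to Hsp90ab1 did not pass with group medians or with any mouse left out, where the log2 difference ranged from -0.04 to 0.00 for genotype, -0.04 to 0.00 for ELS, -0.13 to -0.04 for the interaction, -0.10 to -0.03 for ELS within Fkbp5lox/lox, -0.02 to 0.07 for ELS within Fkbp5Nex, -0.10 to -0.03 for genotype within control mice and -0.01 to 0.07 for genotype within ELS mice. The number of correlated pairs was 12 by Pearson's r and 13 by Spearman's rho. With surrogate variables regressed out it was 8 by each, and with DESeq2 size factors 12 by each. Without mice 12 and 52 it was 11 by r and 6 by rho. No paired analysis was possible because mouse numbers are not shared between groups. With 6 mice a group, differences within the intervals given are not excluded, and reads shared with pseudogenes limit Hsp90aa1, Hspa8 and Ptges3.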
